A study of Mus musculus with 51 samples.

Results

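Nanog was read by 1 probe, ILMN_2706623, out of 25697 on the Illumina MouseRef-8 v2 beadarray, and so stands for 1 of 16593 genes. It was chosen as every probe that the platform annotation assigns to Nanog, and it is described here on all 51 arrays. Mouse embryonic fibroblasts were reprogrammed with c-Myc, Oct4, Sox2 and Klf4, and clonal lines were kept on doxycycline so that the transgenes stayed on. All 51 RNA samples are labelled as coming from an rtTA mouse strain, rtTA being the activator through which doxycycline switches on a Tet-controlled transgene. The arrays held 6 F-class clones at day 16 (clones 1, 2, 6, 7, 13 and 27), 22 C-class clones at day 16, F-class clone 1 again at day 30, and a secondary course at days 2, 5, 8, 11, 16 and 18. They also held 2 iPSC lines that no longer needed doxycycline (1 from secondary and 1 from primary reprogramming), 2 ESC arrays, and 2 fibroblast arrays (primary parental cells from E15.5 embryos and day 0 of the secondary course). Perturbation arrays covered 2 Tet-Myc lines 48 h after doxycycline was removed and the same lines with doxycycline, and cells labelled F-class that received a histone deacetylase inhibitor (HDACi) for 0, 24 or 48 h, with 2 arrays at each time. Each clone is 1 array of 1 line, days of the secondary course are single arrays, and the labels name neither the inhibitor nor the ESC line, nor the rule by which a clone was called F-class or C-class. If expression set the class, the levels compared here are not independent of it.

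Nanog is a homeodomain transcription factor of the inner cell mass, of mouse ESC and of fully reprogrammed cells. With Oct4 (Pou5f1) and Sox2 it forms the core of the pluripotency network, in which these factors bind their own and each other's regulatory DNA. In mouse ESC it is known to sustain self-renewal when LIF signalling is limiting, its level varies from cell to cell, and it holds down genes of primitive endoderm. It is not among the 4 factors used for reprogramming here, so its RNA does not come from a reprogramming transgene. Whether the probe also reads the 2 Nanog pseudogenes in RefSeq was not tested.

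The proximal promoter is shown because the known activators of Nanog, Oct4 and Sox2, were supplied as transgenes in these cells. In mouse ESC both bind a composite element close to the start of transcription. The 300 bases of RefSeq (GRCm38.p6, plus strand) around the Nanog start, chr6:122707239-122707538, read as follows, with capitals for the match to the composite Sox-Oct sequence.
Nanog promoter: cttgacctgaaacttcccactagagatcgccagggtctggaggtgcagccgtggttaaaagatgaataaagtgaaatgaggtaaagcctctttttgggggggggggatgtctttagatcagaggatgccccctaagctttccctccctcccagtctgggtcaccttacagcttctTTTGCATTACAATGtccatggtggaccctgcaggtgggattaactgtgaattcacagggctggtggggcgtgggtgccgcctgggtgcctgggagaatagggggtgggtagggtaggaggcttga
The search, on both strands, was for a Sox site (CATTGT) followed by 1 free base and an Oct site (ATGCAAA). The match lies on the opposite strand, from 75 to 62 bases before the start. Of 32851 promoter windows of this length in the RefSeq table, 2 held the joined sequence (0.00609%), and both were windows of Nanog. The Sox site alone was in 12.6% of windows and the Oct site alone in 4.63%. A longer exact sequence is rarer by its length alone, so these shares show nothing particular about the joined sequence. Of the 17 genes of the core list described below that had a window, 0 held it. With 2 matches in 32851 windows, a 0 among 17 genes carries little weight. Only exact letters were searched, so sites that differ by a base or lie outside these windows were not looked for. A match of letters is a description and shows no binding.

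Levels below are normalized log2 intensities, on which a step of 1 is a doubling, and values of different probes are not set against each other. A probe counts as detected at a detection p under 0.05. The labels do not say whether the ESC or HDACi arrays of a group are separate cultures, and a p-value there measures the spread between arrays, which may be technical. In such bulk RNA, fewer cells expressing Nanog and less Nanog RNA per cell cannot be told apart. The share of probes detected ran from 46.6% to 53.4%. All 5 ESC and iPSC markers on the array (Pou5f1, Zfp42, Esrrb, Dppa5a and Fbxo15) were detected on every iPSC and ESC array and none on the fibroblast arrays. ESC replicate 1 stood apart: its immune markers averaged 9.41, against 6.62 on ESC replicate 2, and its fibroblast markers 9.68, against 7.24. Results that rest on ESC are therefore also given without replicate 1 where they change.

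By group mean, Nanog was lowest in fibroblasts and highest in the F-class cells of the HDACi experiment. On the fibroblast arrays it read 5.26, which was not detected (p = 0.0977), and 5.48, which was just detected (p = 0.0439). The HDACi arrays read 13.22 and 12.59 at 0 h, 13.40 and 13.01 at 24 h, and 13.15 and 12.61 at 48 h. In order of group means, Nanog was 13.20 at 24 h, 12.90 at 0 h and 12.88 at 48 h of HDACi, 12.42 in ESC, 12.36 in iPSC, 11.52 in F-class clones, 9.73 in C-class clones, 9.50 in Tet-Myc lines without doxycycline, 8.23 with doxycycline, and 5.37 in fibroblasts. Next to each other in that order, the 3 HDACi times overlapped, iPSC and ESC overlapped, and Tet-Myc lines without doxycycline lay within the C-class range. Arrays labelled F-class thus spanned 11.14 to 13.22 before any inhibitor, the 2 HDACi 0 h arrays lying above all 6 day 16 clones. That difference was not tested, because those 2 sets also differ in the number format of their deposited columns, which is treated below as a possible batch.

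**Figure D1:**
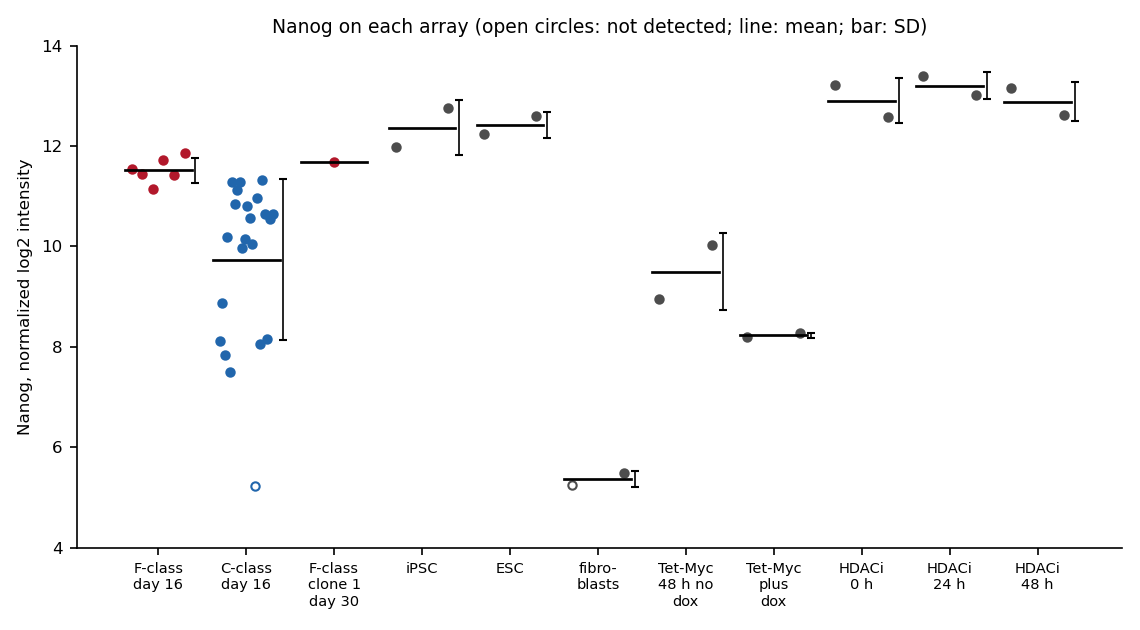
Normalized log2 intensity of Nanog on each array (y axis) by group (x axis), with the mean as a line and the SD as a bar. Filled circles are detected and open circles not detected. The 6 F-class clones lie between 11.14 and 11.85, the 22 C-class clones spread from 5.22 to 11.32, and both fibroblast arrays lie below 5.5.

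The comparison of clone classes asks whether Nanog separated the 2 cell states found at day 16, and it was higher in F-class clones and varied less among them. The 6 F-class clones read 11.55 (clone 1), 11.45 (clone 2), 11.14 (clone 6), 11.71 (clone 7), 11.42 (clone 13) and 11.85 (clone 27). The 22 C-class clones had a lowest value of 5.22, a median of 10.36 and a highest of 11.32. Of the F-class clones 5 lay above every C-class clone, while C-class clones 10, 14 and 23 (11.29, 11.29 and 11.32) lay inside the F-class range. Nanog averaged 11.52 ± 0.25 for F-class clones (SD, n = 6) and 9.73 ± 1.61 for C-class clones (n = 22), a log2 fold change of 1.79 (SE 0.61, 95% interval 0.55 to 3.02), or 3.45-fold higher. The adjusted p was 0.0292 by limma over 11046 genes, of which 24.7% passed the same test (14.1% higher and 10.6% lower). An exact two-sided permutation test of the single value gave p = 4.78e-05, which is 0.000334 after adjustment over the 7 comparisons tested that way. Without C-class clone 20, the lowest, the log2 fold change was 1.57 (adjusted p = 0.0170 by limma). The limma call was lost, with adjusted p from 0.0554 to 0.0622, when any of F-class clones 1, 2, 7 or 27 was left out, although the change stayed between 1.72 and 1.80.

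Spread itself differed between the classes. The mean absolute deviation from the class median was 0.185 for F-class clones against 1.18 for C-class clones, a difference that an exact permutation test over clones put at p = 0.00213 (0.0155 without clone 20). The wide spread among C-class clones was known from earlier results of these data, so this test is no independent support. Among the C-class clones Nanog ran from 5.22 to 11.32, or from 7.01 to 11.35 without background correction, so the width of that range depends on the background treatment of its lowest clone. Clone 20 was the one at the bottom, at 5.22 and not detected (p = 0.110), level with the fibroblast arrays. Clones 9, 5, 22, 3, 25 and 4 followed at 7.50, 7.84, 8.06, 8.11, 8.16 and 8.87. The other 15 began at 9.96 (clone 15) and ended at 11.32 (clone 23). The widest steps in that order were 2.28 above clone 20 and 1.10 between clones 4 and 15, and no other step passed 0.71. The epithelial markers of clone 20 averaged 9.95, the lowest of the C-class range (9.95 to 12.69), against 5.41 on both fibroblast arrays, and its fibroblast markers averaged 7.29, within the C-class range and below the fibroblast arrays (11.60 and 12.24). Its Pou5f1 read 10.72, the lowest of the C-class clones, against 4.61 on both fibroblast arrays. Pou5f1 (Oct4) is also a transgene, and whether the probe reads it is not known.

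Epithelial markers moved with the class in the direction opposite to Nanog. All 4 tested (Cdh1, Krt8, Krt18 and Cldn4) were lower in F-class clones, where 10.6% of all genes were lower. The mean level of these markers ran from 7.09 to 10.67 in F-class and from 9.95 to 12.69 in C-class clones. Immune markers (6.62 to 7.31 in F-class, 6.70 to 7.86 in C-class) and fibroblast markers (6.43 to 7.03 in F-class, 6.51 to 7.62 in C-class) overlapped between the classes. Of 7 fibroblast markers 1 was called, Thy1, with a change of -0.86 on the log2 scale, where 24.7% of all genes passed either way. Of 3 trophoblast markers tested, 1 was lower in F-class clones, where 10.6% of all genes were lower. That marker was Elf5, which averaged 5.82 in F-class clones and 7.64 in C-class clones (a change of -1.83, adjusted p = 0.000178 by limma). The trophoblast markers together ran from 4.91 to 5.99 across F-class clones and from 5.60 to 6.92 across C-class clones. What part these cell features have in the Nanog difference was not tested.

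The core and naive pluripotency factors did not follow Nanog in this comparison. Of 22 listed, 21 were on the array and 19 were detected often enough to be tested. Of these 1 was higher, 9 were lower and 9 did not pass, where 14.1% of all genes were higher and 10.6% lower. The median log2 fold change was -0.91, against 0.03 over all genes. The 1 higher gene was Sox2, with 8.18 ± 0.54 in F-class clones against 7.24 ± 0.88 in C-class clones (a change of 0.94, adjusted p = 0.0452 by limma), although its second probe gave 0.23 and did not pass. Sox2, Pou5f1 and Klf4 are also transgenes, and the sources used here do not say whether their probes read these. Their RNA is therefore not taken as endogenous, here or in the counts and correlations below. Eras, an ESC-expressed Ras, had 5.35 ± 0.47 in F-class clones, detected in 1 of 6, against 7.76 ± 1.07 in C-class clones, 5.30-fold lower, and Utf1, a chromatin protein of ESC, was 5.26-fold lower. Klf5, a Krüppel-like factor of naive cells, was lower by 1.80 on the log2 scale (adjusted p = 2.85e-07), with every F-class clone (8.52 to 9.77) below every C-class clone (10.00 to 11.59). The growth factor Fgf4 and the Nodal co-receptor Tdgf1 were 3.01- and 3.26-fold lower, the second of these with 1 of its 2 probes passing. Sall4, a zinc-finger partner of Nanog and Oct4, was 1.52-fold lower, with 1 of 3 probes passing. The remaining 3 were L1td1, Klf2 and Nr5a2, a nuclear receptor with 2 of 3 probes passing.

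Within the C-class, where the clones run from an undetected to a nearly F-class level, other genes were ranked by how closely their log2 level tracked Nanog over the 22 clones. These 22 points share 1 platform and 1 batch format, and the correlations are descriptions with no test. Over 10109 genes the 5th and 95th percentiles of the correlation with Nanog were -0.60 and 0.59. The most alike were Armcx2 (Pearson r = 0.94), Apbb1 (0.93), Mrps31 (0.90), Cadm1 (0.89) and Fscn1 (0.88). The most opposite were Cobl (-0.95), Rela, the p65 subunit of NF-kappaB (-0.93), Dusp14 (-0.90), Zbtb7a (-0.89) and Abhd5 (-0.89). Leaving out the 2 clones farthest from the Nanog median kept Armcx2 at 0.93 and Cobl at -0.91. Armcx2 itself ran from 8.82 in clone 20 to 11.19, and Cobl from 6.76 to 10.85 in clone 20.

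Known network members were spread along that scale. Sall4 had r = 0.79 with Nanog across the C-class clones, Esrrb 0.76, Gbx2 0.73, Pou5f1 0.71 and Sox2 0.71, while Zfp42 (Rex1), Utf1, Eras and L1td1 lay at 0.37, 0.35, 0.20 and 0.11. Fgf4 ran the other way, at -0.71. For Pou5f1 the rank correlation was only 0.44 and r without the 2 farthest clones 0.56, so part of its value came from those 2 clones. Utf1 turned to -0.15 without those 2 clones, and its 0.35 rests on them.

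**Figure D2:**
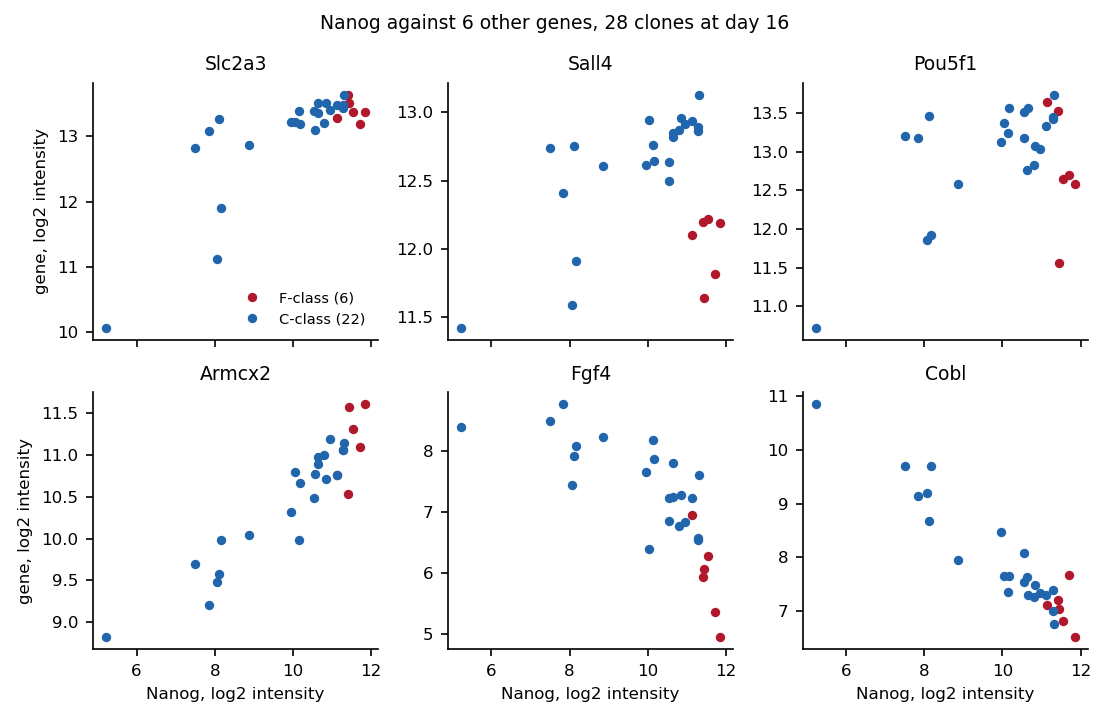
Log2 intensity of 6 genes (y axes) against that of Nanog (x axes) in the 6 F-class and 22 C-class clones at day 16, 1 point per clone. Armcx2 is higher and Cobl lower with higher Nanog over the C-class clones (r = 0.94 and -0.95), while F-class clones lie at high Nanog with Sall4 (11.64 to 12.22) under most C-class clones.

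Against pluripotent lines, the day 16 clones of both classes were below. All 6 F-class clones (11.14 to 11.85) lay below both iPSC arrays (11.97 and 12.76) and both ESC arrays (12.24 and 12.60), yet the gap was not resolved by the fit of all groups. The log2 fold change was -0.90 against ESC (SE 1.08, 95% interval -3.09 to 1.29, adjusted p = 0.517 by limma, where 48% of genes passed, 25.4% higher and 22.5% lower) and -0.85 against iPSC (SE 1.08, interval -3.04 to 1.35, adjusted p = 0.532 by limma, where 53.3% passed, 28.5% higher and 24.7% lower). That fit takes 1 spread for all groups, which the scattered C-class clones enlarge. In a fit of the 2 groups alone, the same differences had adjusted p of 0.00736 and 0.0139 by limma. The exact permutation test gave p = 0.0714 for both, the smallest that 6 against 2 arrays can give. All F-class clones share their number format with ESC replicate 1. Within that format the difference from ESC was -0.72, with no replicate check on the ESC side. It rests on the ESC array whose immune and fibroblast markers stood apart. No iPSC array shares the format of the F-class clones, so a difference from iPSC cannot be told apart from one between formats. In the iPSC format, arrays labelled F-class read 12.07 and 12.13 (secondary days 16 and 18) and 13.22 and 12.59 (HDACi 0 h).

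C-class clones lay below every ESC and iPSC array in 22 of 22 clones. They were 6.44-fold lower than ESC (log2 fold change -2.69, SE 0.97, adjusted p = 0.0244 by limma, where 45.1% of genes passed, 22.8% higher and 22.3% lower) and 6.20-fold lower than iPSC (-2.63, SE 0.97, adjusted p = 0.0236 by limma, where 52.5% passed, 26.9% higher and 25.6% lower). Exact permutation gave p = 0.00725 for each, again the smallest possible, and 0.0169 adjusted over the 7. Both limma calls were lost when 1 of the 2 reference arrays was left out or when number format entered the fit (log2 fold change -2.54 and -2.34, adjusted p = 0.100 and 0.364). With array quality weights the call against ESC was also lost (-2.30, adjusted p = 0.417 by limma). All C-class arrays and ESC replicate 1, whose immune and fibroblast markers stood apart, share a format. Within that format the difference from ESC was -2.50, with no replicate check on the ESC side. No iPSC array shares that format, so for iPSC no value within a format can be had.

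The 2 pluripotent kinds did not differ from each other beyond their spread. The iPSC lines read 11.97 (secondary) and 12.76 (primary), on either side of the ESC arrays. The log2 fold change of iPSC over ESC was -0.05 (SE 1.32, 95% interval -2.74 to 2.63, adjusted p = 0.990 by limma, where 8.15% of genes passed, 3.68% higher and 4.47% lower), and leaving out single arrays took it from -0.45 to 0.34.

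Relative to fibroblasts Nanog was higher in every kind of reprogrammed or pluripotent cell. F-class clones exceeded fibroblasts 71.1-fold (6.15 on the log2 scale, SE 1.08, adjusted p = 1.04e-05), where 58.7% of genes passed (31.5% higher and 27.2% lower), and the size of its change ranked 34 of 11046. In C-class clones it was 20.6-fold higher (4.36, SE 0.97, adjusted p = 0.000251), where 60% passed (31.6% higher and 28.5% lower), with clone 20 alone not above both fibroblast arrays. It was 128-fold higher in iPSC (7.00, adjusted p = 6.24e-05), where 45.2% passed (22.7% higher and 22.5% lower). In ESC it was 133-fold higher (7.05, adjusted p = 4.26e-05), where 48.5% passed (24.7% higher and 23.8% lower), all by limma. The exact permutation test gave p = 0.0714 for F-class clones against fibroblasts, the smallest that 6 against 2 arrays can give, which did not pass. For C-class clones it gave p = 0.0217, which is 0.0380 after adjustment over the 7 comparisons tested that way. Since only 1 of 2 fibroblast arrays detected Nanog, the size of these folds depends on the background treatment. Without background correction the log2 fold changes were 4.48 in F-class, 2.90 in C-class, 5.31 in iPSC and 5.36 in ESC, still past the threshold by limma.

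The same list of core factors put the lines in another order than Nanog did. Against ESC, 16 of 19 core genes were lower and 0 higher in F-class clones, where 22.5% of all genes were lower and 25.4% higher. The median log2 fold change was -3.82, against 0.05 over all genes. In C-class clones 14 were lower and 1 higher (median -2.44), where 22.3% of all genes were lower and 22.8% higher. Against iPSC, 12 were lower and 1 higher in either class, the higher one being L1td1. Of all genes, 24.7% were lower and 28.5% higher in F-class clones, and 25.6% lower and 26.9% higher in C-class clones. ESC replicate 1 was also left out, a choice made after its markers were seen. The median log2 fold change of the core genes against ESC was then -3.17 (F-class) and -2.36 (C-class). With 1 ESC array left, calls were not compared with those above. Fbxo15, a target of Oct4 and Sox2, was 69.2-fold lower in F-class clones than in ESC, Esrrb, a nuclear receptor and known Nanog target, 59.4-fold, and Klf2 56.4-fold, while Nanog was 1.87-fold lower without passing the test. Against fibroblasts, 6 of 19 core genes were higher and 2 lower in F-class clones, the share higher being that of all genes (31.5%). In C-class clones 15 of 19 were higher and 1 lower, where 31.6% of all genes were higher. In iPSC 16 core genes were higher than in fibroblasts and in ESC 18, with 0 lower, where 22.7% and 24.7% of all genes were higher. Between iPSC and ESC 0 of 19 passed, where 8.15% of all genes did. The 6 in F-class clones were Pou5f1, Sox2, Nr5a2, Sall4, L1td1 and the RNA-binding Lin28a, of which Pou5f1 and Sox2 are also transgenes. These comparisons share their ESC, iPSC or fibroblast arrays, so the counts are not independent.

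Time in the secondary course ran from fibroblasts at day 0 to cells labelled F-class at days 16 and 18, with 1 array a day and so no test. Nanog read 5.48 at day 0, 8.41 at day 2, 7.86 at day 5, 10.13 at day 8, 11.93 at day 11, 12.07 at day 16 and 12.13 at day 18. Without background correction the first 2 values were 7.11 and 8.74, so the size of the step over the barely detected day 0 array depends on that treatment. Nanog was 1.47-fold lower at day 5 than at day 2, 4.82-fold higher at day 8 than at day 5 and 3.49-fold higher at day 11 than at day 8. From day 11 on it moved by no more than 0.14 per interval, and at day 18 it stood 0.16 above the secondary iPSC line (11.97). In the primary lines too, F-class clone 1 was level between its 2 times, at 11.69 on day 30 and 11.55 on day 16.

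Other genes of the network followed different courses on the same arrays. Fbxo15 went with Nanog early, at 5.20, 8.50, 8.07 and 10.09 on days 0, 2, 5 and 8, but stood at 8.30 on day 18. Sall4 came on later, at 5.01 on day 2, 6.14 on day 5, 8.80 on day 8 and 10.53 on day 11. Esrrb stayed at or under 5.09 to day 8, peaked at 7.68 on day 11 and was 6.55 at day 18, against 12.35 and 12.29 in the iPSC lines. Zfp42 and Dppa3 did not reach their iPSC levels either, with Zfp42 at 6.51 on day 18 against 11.55 and 12.15 in iPSC, and Dppa3 at 4.72 against 10.04 and 11.35. The fibroblast markers averaged 9.80 on day 2, 8.21 on day 11 and 7.50 on day 18, and the epithelial markers peaked at day 8 (10.86) and stood at 7.81 on day 18. Their part in the course of Nanog was not tested.

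**Figure D3:**
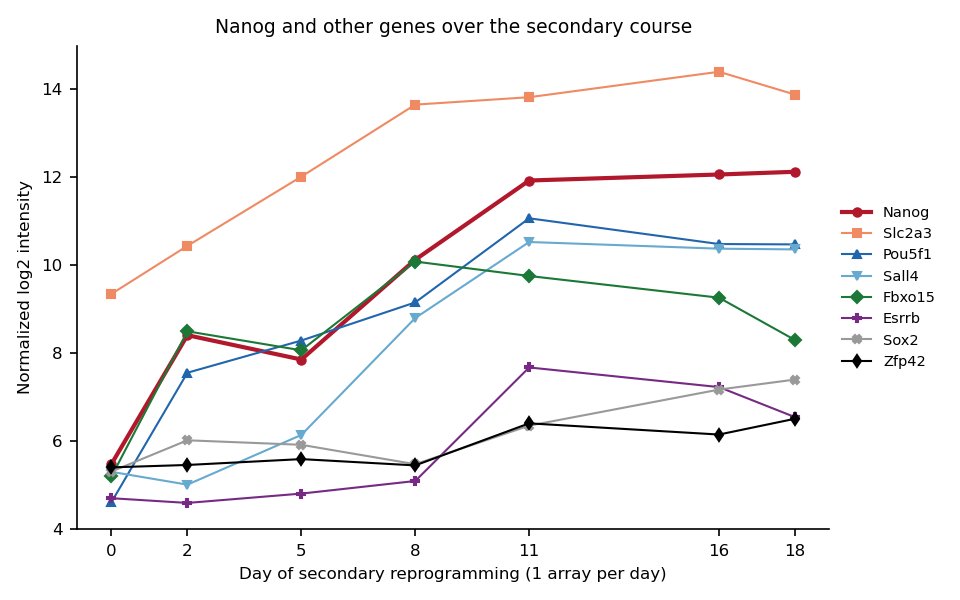
Normalized log2 intensity (y axis) of Nanog and 7 other genes on each day of secondary reprogramming (x axis), 1 array per day. Each line is to be read along itself, since probes differ in brightness. Nanog reaches 11.93 by day 11 and stays there, while Esrrb peaks at 7.68 and Zfp42 remains under 6.6.

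Tet-Myc lines kept on doxycycline had a low Nanog level, which was higher in both lines 48 h after doxycycline was removed. Line 1 read 8.95 without and 8.19 with doxycycline, and line 2 read 10.04 without and 8.27 with it. Both arrays without doxycycline lay above both arrays with it, by 1.70-fold in line 1 and 3.41-fold in line 2. The mean was 9.50 ± 0.77 without and 8.23 ± 0.05 with doxycycline (SD, n = 2 each), a log2 fold change of 1.27 (SE 0.39, 95% interval 0.37 to 2.16) or 2.41-fold. The adjusted p was 0.0637 by limma over 10154 genes, of which 15.3% passed (7.38% higher and 7.92% lower), so the unpaired fit did not call Nanog. Because the labels give the same 2 lines in both states, the fit with line as a block applies too, and there the adjusted p was 0.0177 (SE 0.24). With 1 pair a line, the difference between the lines was not tested.

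Removal of doxycycline moved much of the core list the same way. Of 19 core genes tested, 9 were higher and 0 lower without doxycycline, where 7.38% of all genes were higher and 7.92% lower. The median log2 fold change was 1.21, against -0.02 over all genes. With line as a block 14 core genes were higher and 0 lower, where 1313 of 10154 genes were higher and 1240 lower. Zfp42 was 9.31 and 9.31 without and 7.39 and 6.22 with doxycycline, 5.66-fold higher. Nr5a2 was 5.97-fold higher with 2 of 3 probes passing, and Gbx2, a homeobox gene downstream of LIF signalling, 4.57-fold. Sall4 was 2.65-fold higher by all 3 probes. Tbx3, not detected with doxycycline, was at least 4.64-fold higher, with 2 of its 3 probes passing. Pou5f1 read 14.53 and 14.10 without and 14.16 and 13.38 with doxycycline and did not pass. On the separate list of regulators described below, 3 of 7 tested were higher and 0 lower, where 7.38% of all genes were higher and 7.92% lower. One of the 3 was Tcf7l1, the Wnt-pathway repressor of Nanog in mouse ESC, 4.32-fold higher by both of its probes. Markers of other cells moved too: Gata6 and Dab2 of primitive endoderm were 3.16 and 2.09 higher on the log2 scale, the matrix gene Dcn 2.40, and the trophoblast factor Cdx2, undetected with doxycycline, was at least 3.12-fold higher. The mean level of the 5 primitive endoderm markers was 6.12 and 7.10 without and 5.63 and 4.92 with doxycycline, and what part such cells have in the Nanog change was not tested.

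Nanog did not pass the test at any time of the histone deacetylase inhibitor, while 9 core genes rose by 48 h. Replicate 1 read 13.22, 13.40 and 13.15 at 0, 24 and 48 h, and replicate 2 read 12.59, 13.01 and 12.61. Replicate 1 was above replicate 2 at every time, by 0.63, 0.39 and 0.54, and the values of the 3 times overlapped. The log2 fold change was 0.30 at 24 h against 0 h (SE 0.39, 95% interval -0.60 to 1.20, adjusted p = 0.790), where 2.09% of 10154 genes passed (0.965% higher and 1.12% lower). It was -0.022 at 48 h against 0 h (interval -0.92 to 0.88, adjusted p = 0.975), where 28.6% passed (14.2% higher and 14.5% lower), and -0.32 at 48 h against 24 h (interval -1.22 to 0.58, adjusted p = 0.632), where 16.6% passed (8.41% higher and 8.21% lower), all by limma. With 2 arrays a time, a change of either sign inside these intervals was not detectable.

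Over those 48 h the core list had 9 of 19 genes higher and 0 lower, where 14.2% of all genes were higher and 14.5% lower. The median log2 fold change was 1.04, against 0.02 over all genes. Esrrb read 13.54 and 13.58 at 48 h and 10.44 and 7.19 at 0 h, 26.8-fold higher, with wide scatter between the 0 h arrays. Eras was 20.2-fold and Utf1 26.2-fold higher, each detected on 1 of the 2 arrays at 0 h. Sox2 was 4.29-fold higher by both of its probes, Zfp42 10.2-fold, Klf5 4.44-fold, Fbxo15 2.82-fold and L1td1 1.92-fold, and Fgf4, not detected at 0 h, at least 3.16-fold. Pou5f1 was 13.04 and 12.99 at 48 h and 12.78 and 12.86 at 0 h, and Sall4 12.98 and 13.00 at 48 h and 12.95 and 13.16 at 0 h, neither passing. At 24 h the call was for L1td1 alone among the 19 core genes, 2.09-fold higher than at 0 h, where 0.965% of all genes were higher. Between 48 and 24 h 7 core genes were higher and 1, Tcl1, lower, where 8.41% of all genes were higher and 8.21% lower. The 2 arrays at 0 h differed beyond Nanog, since the 5 ESC and iPSC markers averaged 10.91 in replicate 1 and 8.61 in replicate 2, against 12.88 and 12.86 at 48 h. Epithelial markers moved with these genes, at a mean of 11.26 and 11.37 at 48 h and 9.09 and 8.02 at 0 h, as did the trophoblast markers Cdx2 (7.43 and 7.33 at 48 h, undetected at 5.35 and 5.12 at 0 h) and Elf5 (8.77 and 8.68 at 48 h, 5.63 and 4.72 at 0 h). The fibroblast markers Dcn and Col1a1 were lower at 48 h, with changes of -3.35 and -2.19 on the log2 scale (adjusted p = 0.000321 and 0.00241 by limma), and the mean of the fibroblast list was 5.74 and 5.63 at 48 h and 6.48 and 6.79 at 0 h. The part of these markers was not tested.

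**Figure D4:**
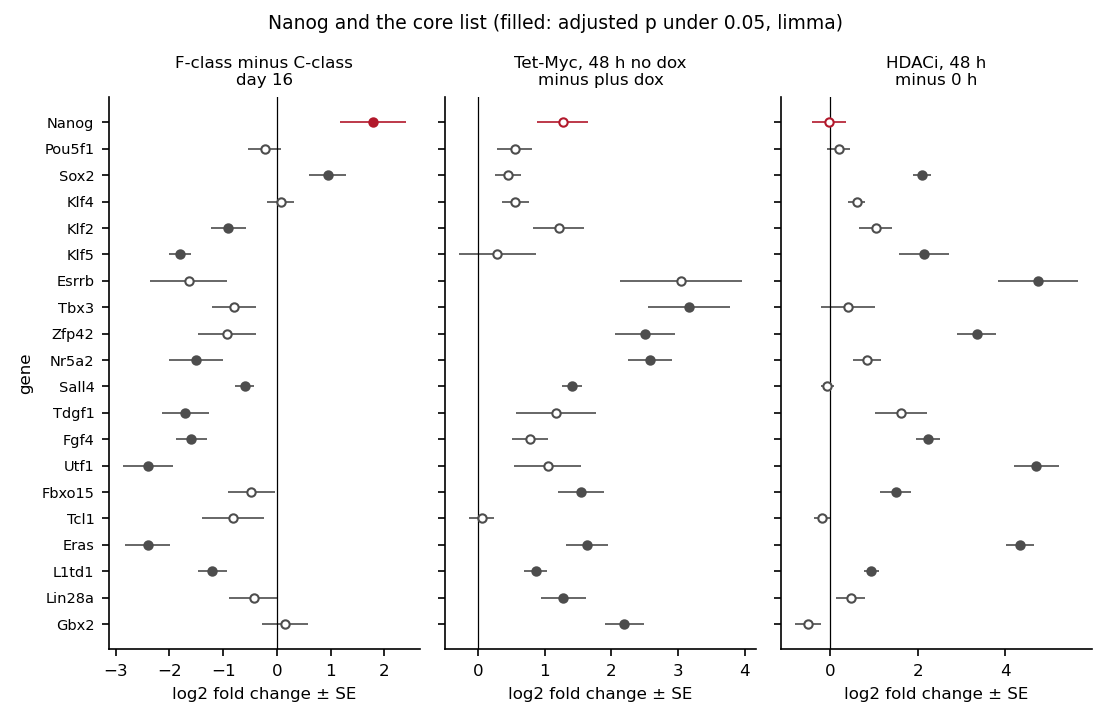
Log2 fold change with SE (x axes) of Nanog and 19 core and naive factors (y axis) between F-class and C-class clones, on removal of doxycycline from Tet-Myc lines, and after 48 h of HDACi. Filled points passed the limma test. Nanog is higher in F-class where 9 core genes are lower, and is near 0 after 48 h of HDACi where 9 core genes are higher.

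Regulators of Nanog came from a list of 12, of which 9 were on the array. In the comparison of F-class with C-class clones, 2 of 8 tested were lower and 0 higher, where 10.6% of all genes were lower: Tcf7l1 (9.78 ± 0.50 in F-class clones against 10.90 ± 0.73 in C-class clones, 2.18-fold lower, 1 of 2 probes passing) and Nr6a1, the nuclear receptor GCNF that silences pluripotency genes on differentiation (2.33-fold lower). The receptor chain Lifr, its effector Stat3, beta-catenin (Ctnnb1), Mbd3 and Zfp281, known in mouse ESC as a repressor of Nanog, did not pass. The receptor chain Il6st was not detected on any F-class or C-class array. After 48 h of HDACi, Nr6a1, Mbd3 and Zfp281 were 3.73-, 1.89- and 1.85-fold higher and Ctnnb1 1.52-fold lower, out of 7 tested, with 1 of the 2 Ctnnb1 probes passing, where 14.2% of all genes were higher and 14.5% lower.

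Proteins that bind Nanog in mouse ESC formed the next list. Of 21 listed, 17 were on the array and 15 tested, and 1 was higher and 1 lower in F-class than C-class clones, where 14.1% of all genes were higher and 10.6% lower. Mta1, a NuRD subunit, was 1.35-fold higher, and Sall4 lower as above. The median log2 fold change was 0.00, against 0.03 over all genes. Against ESC, 7 of 15 partners were lower and 1 higher in F-class clones, where 22.5% of all genes were lower and 25.4% higher. Taken either way, the share of calls was near that of all genes (48%). Sall1 was 3.36-fold lower, Arid3b 3.07-fold and Nacc1 2.64-fold, while Gatad2b, another NuRD subunit, was 2.11-fold higher. The median log2 fold change of the partners against ESC was -0.69, against 0.05 over all genes, and -0.97 without ESC replicate 1.

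Genes that Nanog is known to keep low in mouse ESC were detected in part, 1 to 3 of 8 per F-class array and 2 to 4 per C-class array. Dab2 was detected on all 6 F-class and all 22 C-class clones, with means of 8.69 and 8.70, and Otx2 reached 11.45 in the C-class. Over the C-class clones r with Nanog was 0.62 for Otx2, 0.09 for Gata6, -0.04 for Pdgfra and -0.51 for Dab2. Of 8 listed, 7 were tested, and among the clones 1 was lower in the F-class (Pdgfra, not detected on any F-class array, at least 1.18-fold lower) and 0 higher, near the 10.6% of all genes that were lower. Their mean level was 5.38 to 5.94 across F-class clones and 5.34 to 6.55 across C-class clones. Between iPSC and ESC, where Nanog did not differ beyond its spread, 3 of 7 were higher in iPSC and 0 lower, where 3.68% of all genes were higher. Gata6 was 9.35 and 8.81 in iPSC and 6.72 and 6.35 in ESC, Sox17 8.85 and 7.99 in iPSC and 5.40 and 5.31 in ESC, and Foxa2, not detected in ESC, was at least 3.56-fold higher. The mean of all 8 was 8.37 and 7.88 on the iPSC arrays and 7.68 and 6.88 on the ESC arrays.

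Nanog lies on mouse chromosome 6, and the 10 protein-coding genes on each side in the RefSeq table served as its neighbours. Of these 20, 17 were on the array and 11 were tested. Gdf3, a TGF-beta family ligand, and Dppa3 (Stella), a maternal factor that protects DNA methylation in the zygote, lie just before Nanog, and the glucose transporter Slc2a3 (Glut3) is the next gene after it. Over all 51 arrays Slc2a3 was the third most alike of 11755 genes, with r = 0.84, after Slc29a4 (0.86) and Pde1b (0.84) and before Gldc (0.83) and Proser1 (0.82). The most opposite were Ppp3ca (-0.82), Cnot6l (-0.81), Camk2d (-0.78), Golga2 (-0.77) and Pam (-0.77). Those 51 points include repeat arrays of the same lines and span both number formats. Within the C-class clones Slc2a3 had r = 0.82 with Nanog (0.70 without the 2 farthest), Gdf3 0.73 and Dppa3 0.48.

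Slc2a3 did not follow Nanog in every comparison. Its level ran from 13.19 to 13.64 in F-class and from 10.06 (clone 20) to 13.64 in C-class clones and did not pass the test between the classes. In the secondary course it read 9.35, 10.44, 12.02, 13.66, 13.82, 14.40 and 13.88 from day 0 to day 18, with no dip at day 5. Dppa3, just on the other side, was undetected on 5 of 6 F-class arrays, where Nanog was high, and was lower there than in iPSC, where it read 10.04 and 11.35. Dppa3 rose under HDACi, reading 11.30 and 11.53 at 48 h and 7.91 and 5.72 at 0 h (24.3-fold), where Nanog did not pass. Gdf3 was 2.89-fold higher at 24 h and 2.02-fold higher at 48 h of HDACi than at 0 h, and 2.82-fold higher in Tet-Myc lines without doxycycline. Between F-class and C-class clones, 1 of the 11 neighbours passed, where 24.7% of all genes did: the Polycomb gene Phc1, 1.66-fold lower by all 3 probes.

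**Figure D5:**
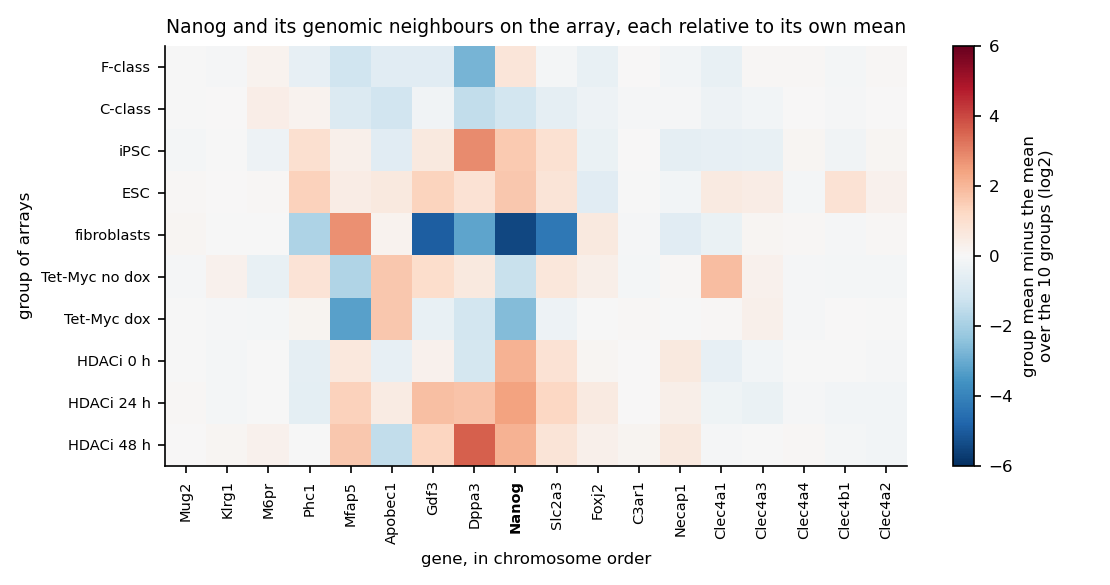
Nanog and the 17 neighbouring genes on the array, in chromosome order (x axis), by group of arrays (y axis). Colour is the group mean log2 intensity minus the gene's own mean over the 10 groups. Gdf3, Dppa3, Nanog and Slc2a3 are all lowest or near lowest in fibroblasts, while Dppa3 is low and Nanog is not in F-class clones.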

How the data were processed

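RNA of 51 mouse samples was measured on Illumina beadarrays. Per the labels' protocols it was extracted with a QIAGEN RNeasy kit. The intensity values the authors deposited were not normalized (medians per array 108.7 to 212.11), and each came with a deposited detection p-value. A second set of deposited intensity values had been scaled by the authors to 1 median (143.14) and 1 mean (917.47), by a method not given in the sources used here, and served as an alternative. The label was biotin, per the labels, and scanner settings are not given there either.

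The raw intensities were taken through neqc of limma 3.58.1 (R 4.3.3), which corrects background, here from negative controls that it infers from detection p-values, adds an offset (16), normalizes by quantiles and takes log2. For a gene with several probes, the one of highest average level was used. Of 16593 genes 16582 matched RefSeq (GRCm38.p6), used for names and neighbours. The test was limma's lmFit, contrasts and eBayes, two-sided, on genes that at least 2 of a fit's arrays detected (p under 0.05). Benjamini-Hochberg adjustment covered every gene of the fit, with 0.05 as the threshold. One fit held the clones, iPSC, ESC and fibroblasts (11046 genes), another the Tet-Myc and HDACi arrays (10154 genes). Single values were tested by exact two-sided permutation over arrays (scipy 1.17.1). "At least" folds use, on undetected arrays, the higher of the probe's own value and the lowest detected signal. The limma and permutation steps were tested on simulated data.

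Arrays in 2 number formats (31 with 1 decimal, 20 with more) were treated as possible batches. The Tet-Myc lines pair by label, and their deviations from the group means correlated at 0.50. Gene lists were core and naive factors, regulators, protein partners, genes kept low by Nanog, 20 neighbours, and markers of 7 cell types (of which endothelial markers are not described further). Nanog is named on every array, list members by role with values where called, and the 5 most alike and 5 most opposite genes by Pearson correlation, skipping clone-type symbols (Rik, LOC, Gm, BC and AK numbers). Members and lists were chosen with earlier results of these data known. The RefSeq table holds 2 Nanog pseudogenes, and whether the probe also reads them was not tested. The number of arrays, 1 or 2 in all groups but the clones, limits the precision.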

Additional observations from a re-analysis of the deposited data

How the results depend on the processing

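The Nanog results kept direction and side of the threshold in all 14 contrasts when all groups entered 1 fit, without the detection filter, with a stricter filter on detection, and with quantile normalization or the authors' scaled values in place of neqc, although those last 2 lowered the change from fibroblasts (4.48 and 4.49 in place of 6.15 in F-class, 2.90 and 2.91 in place of 4.36 in C-class clones). Fitting 2 groups alone gained the call for F-class against ESC (-0.90) and iPSC (-0.85). C-class against ESC lost its call with array weights (-2.30, adjusted p = 0.417 by limma) and with number format as a term (-2.54), and C-class against iPSC with number format (-2.34).

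With the replicate block, in which the line is the block for Tet-Myc, that change (1.27) passed, and calls over all genes went to 1313 higher and 1240 lower, from 749 and 804. HDACi replicates share only a number (deviations correlated at 0.26, 0.09 and 0.08), and their replicate block changed no Nanog call. It took the calls to 249 higher and 274 lower at 24 h against 0 h, from 98 and 114, and to 1221 and 1324 at 48 h against 24 h, from 854 and 834.

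Leaving out single arrays gave 1.57 to 1.86 for F-class over C-class, -1.08 to -0.72 for F-class over ESC, -1.24 to -0.45 over iPSC, -2.87 to -2.47 for C-class over ESC (lost without either ESC array), -3.02 to -2.24 over iPSC (lost without either iPSC array), -0.45 to 0.34 for iPSC over ESC (0.34 without iPSC replicate 1, 0.13 without ESC replicate 2), 0.73 to 1.81 for Tet-Myc (called without line 1 off doxycycline), -0.017 to 0.62 for HDACi at 24 h against 0 h (-0.017 without 0 h replicate 2), -0.34 to 0.30 at 48 h against 0 h (0.30 without 0 h replicate 1, 0.25 without 48 h replicate 2) and -0.59 to -0.05 at 48 h against 24 h. The change from fibroblasts ran from 6.04 to 6.26 in F-class, 4.25 to 4.58 in C-class, 6.60 to 7.39 in iPSC and 6.87 to 7.23 in ESC. The permutation tests of C-class clones were lost without 1 of the 2 reference arrays (smallest p then 0.0870, exact), and the difference in spread ran from -1.04 to -0.80. Among other named genes, number format turned Lifr (0.13) and M6pr (-0.13) for F-class over iPSC, leaving out ESC replicate 1 turned Clec4a1 for F-class (range -2.02 to 0.055) and C-class over ESC (-1.89 to 0.19) and Clec4a3 for C-class (-1.32 to 0.10), and leaving out ESC replicate 2 turned Chd4 for ESC over fibroblasts (-0.022 to 1.47). The cause of these shifts was not tested. Of 11 neighbours, those called against ESC were 0 higher and 5 lower in F-class (25.4% and 22.5% over all genes) and 0 and 7 in C-class clones (22.8% and 22.3%). Their median log2 fold changes were -0.98 and -1.16, and without ESC replicate 1 they were -0.85 and -0.49. Other probes of Nanog could not be tried, because there is 1.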
